A study of Mus musculus with 31 samples.

Results

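Neuropeptide Y (Npy) and 3 of its receptors, Npy1r, Npy2r and Npy5r, were followed through 31 single olivocochlear neurons of the mouse. The 4 genes were chosen by name. Of these, 3 had a row among the 20784 genes of the deposited normalised table (Npy, Npy1r and Npy2r), and all 4 were matched by Ensembl identifier among the 55421 mouse genes of the raw counts. Each library is the cytoplasm of 1 neuron, drawn up through the patch pipette after recording in an acute brainstem slice, with cDNA made by Smart-seq2 and read in pairs of 75 bases. The 18 lateral olivocochlear (LOC) neurons were patched in the lateral superior olive and the 13 medial olivocochlear (MOC) neurons in the ventral nucleus of the trapezoid body. All neurons came from ChAT-IRES-Cre; tdTomato mice, in which Cre from the choline acetyltransferase locus switches on a red fluorescent protein, so that a red cell marks present or earlier activity of that locus. The labels list the genotype of every sample as wild-type and its treatment as RNA-seq after patch clamp, and give no age, animal or batch.

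Neuropeptide Y is a peptide cotransmitter that neurons store in dense-core vesicles and release during strong activity. Its receptors couple to inhibitory G proteins. The Y1 and Y5 receptors, encoded by Npy1r and Npy5r, act mostly on the receiving cell, and the Y2 receptor, encoded by Npy2r, is best known as an autoreceptor on nerve endings that release the peptide. LOC neurons send axons to the auditory nerve fibres under the inner hair cells and carry several peptides beside acetylcholine, among them CGRP from Calca and urocortin from Ucn. Neuropeptide Y is known from a subset of them. MOC neurons end on the outer hair cells and are known for few peptides.

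The Npy gene lies on chromosome 6 at 49822710 to 49829507 (GRCm38, plus strand, ENSMUSG00000029819) and no annotated gene overlaps it. The 250 bases before its RefSeq start are shown with those of Calca and Ucn, because the LOC cells highest in Npy were also the highest in these genes (values below). The windows are from RefSeq on GRCm38.p6, chr6:49822460-49822709 (plus strand) for Npy, chr7:114636358-114636607 (minus strand) for Calca and chr5:31138896-31139145 (minus strand) for Ucn, each written in the direction of its gene. Capitals mark every match, on either strand, to TGACG, the core of the cAMP response element, and to GGGCGG, the GC box.
Npy: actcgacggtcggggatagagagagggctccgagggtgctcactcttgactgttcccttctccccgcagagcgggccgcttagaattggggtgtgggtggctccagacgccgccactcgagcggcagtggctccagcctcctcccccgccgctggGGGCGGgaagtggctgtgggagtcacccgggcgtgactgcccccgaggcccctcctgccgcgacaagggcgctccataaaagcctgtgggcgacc
Calca: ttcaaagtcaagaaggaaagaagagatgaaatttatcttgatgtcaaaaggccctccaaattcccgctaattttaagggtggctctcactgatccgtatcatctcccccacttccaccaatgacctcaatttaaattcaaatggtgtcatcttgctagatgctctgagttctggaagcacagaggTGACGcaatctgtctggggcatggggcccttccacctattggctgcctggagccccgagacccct
Ucn: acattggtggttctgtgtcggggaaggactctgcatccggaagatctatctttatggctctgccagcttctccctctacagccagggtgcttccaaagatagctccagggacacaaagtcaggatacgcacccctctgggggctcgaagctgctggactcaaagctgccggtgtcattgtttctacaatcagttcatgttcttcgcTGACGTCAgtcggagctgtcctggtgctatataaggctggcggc
The Npy window held 1 match, a GC box that 32.7% of 32851 RefSeq windows of this length also hold. The Calca window held 1 TGACG and the Ucn window 2, which overlap as the full palindromic element TGACGTCA. TGACG or its complement was present in 17.8% of windows and TGACGTCA in 1.55%. These are matches of letters and not binding sites.

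Values are counts of a gene per 1000000 mouse gene counts of its library (CPM). Libraries ranged from 356412 to 2627174 counts. A gene without a read may still have a level worth up to 3 counts, which is 1.14 to 8.42 CPM depending on the library. Since no animal is named, each group counts as 1 sample: spreads are between cells, no difference was tested, and intervals cover counting error only. In such libraries fewer reads of a gene can come from less RNA drawn up or from less RNA in the cell, and these cannot be told apart. Each library was checked for reads over Chat, Slc18a3 and Slc5a7, the genes that make and transport acetylcholine and its precursor, called cholinergic reads here. Neurons of both groups were marked by the choline acetyltransferase locus, so these reads do not check LOC against MOC. They ranged from 0 to 1613 in LOC and from 0 to 997 in MOC libraries. In the LOC group 14 of 18 libraries held 10 or more, in the MOC group 8 of 13. The other libraries hold little or no trace of these genes, which are expected in either labelled type. The tdTomato transcript itself had a read in 11 LOC and 9 MOC libraries.

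Npy was higher in the LOC group and its level differed widely from cell to cell. Reads of Npy were present in 15 of 18 LOC cells (83.3%, with an exact 95% Clopper-Pearson interval from 58.6 to 96.4) and in 6 of the 13 neurons labelled MOC (46.2%, from 19.2 to 74.9). With at least 5 reads the numbers were 12 and 5. Over LOC cells Npy ran from 0 through a median of 32.4 to a highest value of 830 CPM. Over MOC cells it ran from 0 through a median of 0 to a highest value of 567 CPM. The groups overlapped at the low end, where 3 LOC cells had no Npy read. LOC cells 8, 15 and 18 lay above every MOC cell, and above 66.9 CPM the only MOC cell was cell 4, which held 3 cholinergic reads.

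The LOC cells fell over a wide scale, with the highest 3 far above the rest. LOC cell 8 had 830 CPM (649 reads), LOC cell 15 786 CPM (728 reads) and LOC cell 18 594 CPM (471 reads), and these cells held 83.2% of all Npy reads of the LOC group. The next highest was LOC cell 3 with 104 CPM. LOC cells 9, 16 and 5 followed with 93.5, 78.7 and 62.6 CPM, and LOC cells 12, 10 and 2 had 36.6, 34.5 and 30.3 CPM. LOC cells 6 and 11 held 6 reads each, LOC cells 1, 4 and 17 held 1 read each, and LOC cells 7, 13 and 14 held 0. A level of 1 read lies under the limit that a count of 0 allows, so these last 6 cells cannot be ordered.

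Among MOC cells a single library carried most Npy reads. MOC cell 4 had 567 CPM (353 reads, 75.8% of the Npy reads of the group). MOC cells 11 and 12 had 66.9 and 40.2 CPM (63 and 33 reads), MOC cells 6, 7 and 1 held 7, 8 and 2 reads, and the other 7 MOC cells held 0. The plot of members by cell shows these levels with those of the receptors.

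**Figure D1:**
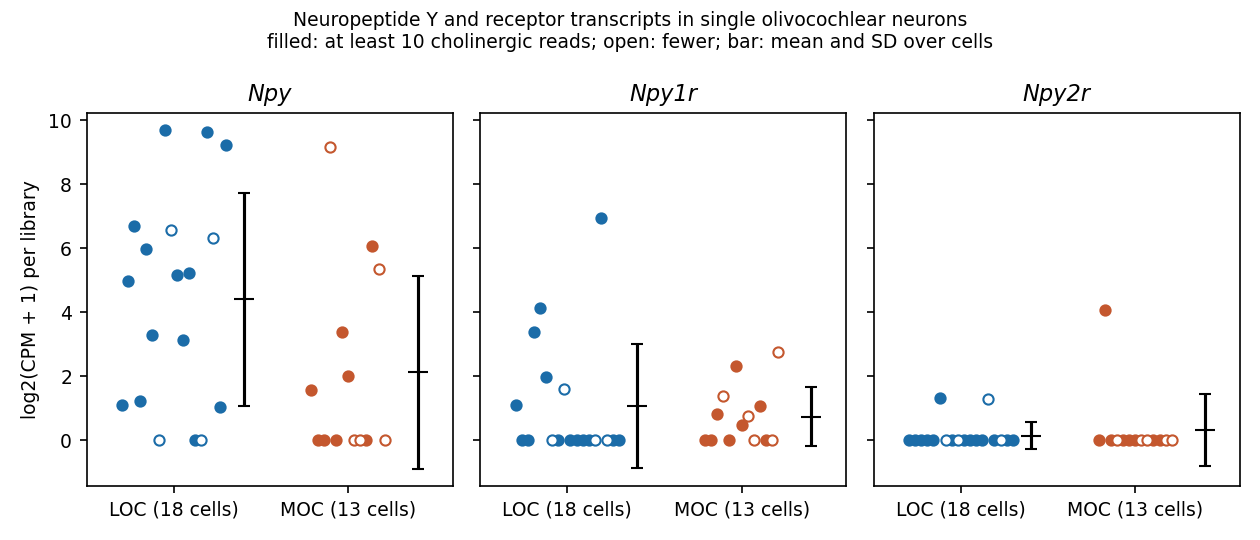
Level of Npy, Npy1r and Npy2r in each neuron, as log2(CPM + 1), for 18 LOC (blue) and 13 MOC (orange) cells, spread sideways in the order of cell number. Filled points have at least 10 cholinergic reads, open points fewer, and bars give the mean and SD over cells. Most LOC cells lie above 0 for Npy, whereas most LOC cells lie at 0 for Npy1r, with LOC cells 15, 5 and 4 the highest at 122, 16.4 and 9.49 CPM, and all cells but 3 lie at 0 for Npy2r, with MOC cell 2 the highest.

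In the summed counts Npy had 156 CPM in LOC (2221 reads, exact 95% Poisson interval 149 to 162) and 34.2 CPM in MOC (466 reads, 31.1 to 37.4), a ratio of 4.56. Without MOC cell 4 the MOC level was 8.68 CPM and the ratio 17.9. Without LOC cell 15, which held the most Npy reads, the LOC level was 112 CPM and the ratio 3.28. The ratio without all of LOC cells 8, 15 and 18, which held 83.2% of the LOC reads, was not computed. On the log2(CPM + 1) scale the LOC mean was 4.41 ± 3.34 (SD, n = 18 cells) and the MOC mean 2.12 ± 3.01 (SD, n = 13 cells), a difference of 2.29 that is smaller than the spread between cells in either group. A gene was called by size when the summed CPM differed at least 2-fold, the means by at least 1, and the higher group had a read in 25% or more of its cells. Genes read in 25% or more of either group's cells are called measured. Of these 17754 genes, 6.07% met this rule toward LOC and 5.67% toward MOC. Npy was the only one of the 4 genes to meet it, toward LOC. A difference of means as wide as that of Npy, or wider, was found for 98 measured genes (0.552%). In the libraries with at least 10 cholinergic reads the summed Npy level was 175 CPM in 14 LOC and 8.83 CPM in 8 MOC cells and the difference 3.11, against 8.47% of measured genes called toward LOC in that subset. MOC cell 11, with exactly 10 cholinergic reads, held 63 Npy reads, and in the libraries with over 10 the MOC level was 2.10 CPM and the difference 3.75. Averaging CPM over cells in place of summing counts gave 148 in LOC and 53.0 in MOC, a ratio of 2.80. The deposited normalised values, averaged in the same way, stood at 131 and 70.0, a ratio of 1.87 that is under the 2-fold limit.

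Reads of the receptor genes were few. Npy1r (chromosome 8, 66697192 to 66706792, plus strand, ENSMUSG00000036437) had 147 reads in LOC and 12 in MOC. LOC cell 15 alone held 113 of them (122 CPM). LOC cell 5 held 23 reads (16.4 CPM), LOC cell 4 held 7, LOC cell 6 held 2 and LOC cells 1 and 9 held 1 each, while the other 12 LOC cells held 0. No MOC cell reached 5 reads: MOC cell 13 held 4, MOC cell 6 held 3, and 5 others held 1. Thus 6 of 18 LOC cells (33.3%, 13.3 to 59.0) and 7 of 13 MOC cells (53.8%, 25.1 to 80.8) held a read, and 3 and 0 held at least 5. In the summed counts LOC had 10.3 CPM (8.71 to 12.1) and MOC 0.88 CPM (0.45 to 1.54), a ratio of 11.7, or 2.90 without LOC cell 15. The mean of log2(CPM + 1) over LOC cells was 1.06 ± 1.94 and that over MOC cells 0.74 ± 0.93. The difference of 0.33 did not meet the size rule and was -0.02 without LOC cell 15. LOC cell 15 was second among LOC cells in Npy and highest in Npy1r, but the other cells with the most Npy, LOC cells 8 and 18, held 0 reads of Npy1r, which allows up to 3.84 and 3.79 CPM.

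Npy2r (chromosome 3, 82538383 to 82548084, minus strand, ENSMUSG00000028004) was read in 2 of 18 LOC cells (11.1%, 1.38 to 34.7) and 1 of 13 MOC cells (7.69%, 0.20 to 36.0). LOC cells 6 and 14 held 1 read each. All 14 reads of the MOC group came from MOC cell 2 (15.6 CPM), which held no Npy read. Summed over cells this came to 0.14 CPM (0.017 to 0.51) for LOC against 1.03 CPM (0.56 to 1.72) for MOC. Npy2r was not among the measured genes, and its difference of means of -0.17 became 0.14 without MOC cell 2. Npy5r (chromosome 8, 66679965 to 66688128, minus strand, ENSMUSG00000044014), which lies 9063 bases from Npy1r and is read in the opposite direction, had 0 reads in all 31 cells. Over 27894270 counts this allows up to 0.11 CPM. Genes can be compared only per length: per kilobase of annotated exon the LOC group had 275 CPM of Npy, 2.99 of Npy1r and 0.041 of Npy2r, beside 921 of Ucn and 3377 of Calca.

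The LOC cells with most Npy were those with most Calca and Ucn. LOC cells 15, 18 and 8 were, in this order, the highest 3 in both genes. They had 35892, 26921 and 18871 CPM of Calca and 3022, 1753 and 1103 CPM of Ucn, and held 85.5% of the Calca and 76.3% of the Ucn reads of the group. In the other LOC cells Calca was no guide to Npy. LOC cells 1, 4 and 13 had 1591, 1302 and 961 reads of Calca with 1, 1 and 0 reads of Npy, and LOC cell 11 had 1967 with 6. LOC cells 9 and 16, in turn, had 46 and 40 reads of Npy with 0 of Calca and 0 of Ucn. At least 5 reads of both Npy and Calca were present in 9 LOC cells, of Npy without Calca in 3, of Calca without Npy in 3 and of neither in 3. In MOC the numbers were 2, 3, 4 and 4. MOC cell 3, highest of its group in Calca with 1629 reads, held 0 of Npy, and MOC cell 4, highest in Npy, held 0 of Calca.

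**Figure D2:**
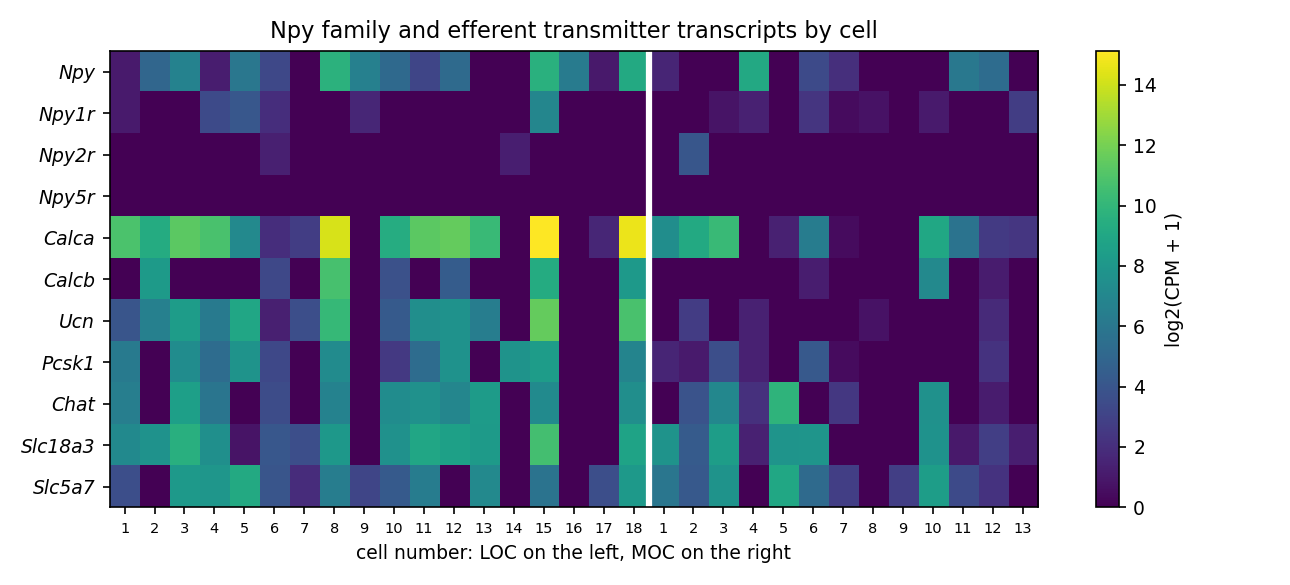
Level of 11 genes in each neuron as log2(CPM + 1), with 18 LOC cells on the left and 13 MOC cells on the right of the white line. LOC cells 8, 15 and 18 are high in Npy, Calca, Calcb and Ucn together, Npy5r is at 0 in all 31 cells, and MOC cell 4 is high in Npy with Calca at 0.

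Across LOC cells the Pearson correlation of log2(CPM + 1) between Npy and Calca was 0.44 (Spearman 0.45, n = 18 cells). It was 0.48 without the 2 cells farthest from the median of Calca, LOC cells 9 and 14, which held 0 reads of Calca. Over the 14 LOC cells with at least 10 cholinergic reads it was 0.57. Both sets keep LOC cells 8, 15 and 18, the highest in both genes, and without LOC cell 15 alone the value was 0.36. Between Npy and the cholinergic reads the correlation was 0.36 (Spearman 0.40), and 0.40 without the 2 farthest cells, which hold no cholinergic read. Across MOC cells the correlation of Npy was -0.24 with Calca (Spearman -0.17) and -0.27 with the cholinergic reads (Spearman -0.20, n = 13 cells). Without MOC cell 4 the MOC values were -0.013 and -0.16. The points share the depth and quality of their library, many are at 0, and these values describe the cells only. Of 9088 genes compared with Npy over LOC cells, 309 (3.40%) reached the r of Calca or more.

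**Figure D3:**
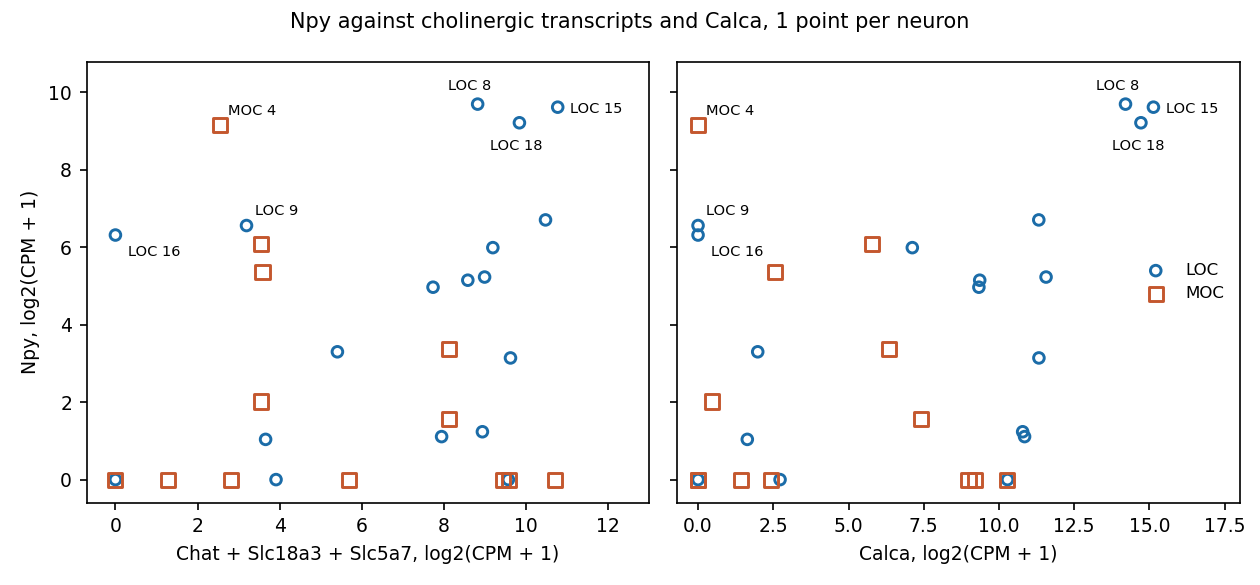
Npy against the sum of Chat, Slc18a3 and Slc5a7 (left) and against Calca (right), both axes as log2(CPM + 1), with 1 point per neuron (LOC circles, MOC squares). LOC cells 8, 15 and 18 lie at the top in both panels and farthest right for Calca. In the left panel LOC cell 8 lies near the LOC median (450 against 416 CPM). LOC cells 9 and 16 and MOC cell 4 have Npy with fewer than 10 cholinergic reads and 0 reads of Calca.

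Npy reads were not confined to libraries with cholinergic reads. At least 5 reads of Npy and at least 10 cholinergic reads were present together in 10 LOC and 3 MOC cells. LOC cells 9 and 16 and MOC cells 4 and 12 held at least 5 reads of Npy with 4, 0, 3 and 9 cholinergic reads. The MOC cells richest in cholinergic reads, cells 5, 3 and 10 with 997, 914 and 689, held 0 reads of Npy. The LOC cell richest in them, cell 15 with 1613, was the second highest in Npy, whereas LOC cell 13 with 584 held 0. In the libraries with at least 10 cholinergic reads the median level of Npy was 32.4 CPM in LOC (lowest 0, highest 830) and 0.98 CPM in MOC (0 to 66.9). In those with fewer it was 39.4 CPM over 4 LOC cells (0 to 93.5) and 0 CPM over 5 MOC cells (0 to 567).

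Markers of oligodendrocytes, astrocytes and microglia had reads in all 18 LOC and all 13 MOC libraries, so also in these 4 with Npy but few cholinergic reads. The oligodendrocyte list made up 12.2% and 4.03% of counts in LOC cells 9 and 16 (LOC median 3.18%). In MOC cells 4 and 12 it made up 0.40% and 7.57% (MOC median 4.32%). In LOC cells 9 and 16 the summed level of 8 microglial markers was 1946 and 1297 CPM, the highest and second highest of the LOC group (range 31.1 to 1946), with 8 and 7 of the 8 markers read and Tmem119 at 0 in cell 16. The astrocyte list was also highest in these cells, at 3306 and 2433 CPM (LOC range 442 to 3306), with all 6 markers read. MOC cell 12 was second of its group in microglial markers at 2135 CPM (MOC range 40.7 to 7702), with all 8 read. MOC cell 4 held 529 CPM of that list, with 5 of 8 markers read and Cx3cr1, P2ry12 and C1qb at 0. It held 884 CPM of 4 markers of inhibitory neurons (MOC range 10.1 to 2990), led by Gad2 with 384 reads. Of 3 markers of motor neurons it held 878 reads of Prph, an intermediate filament, and 1 read each of Mnx1 and Isl2. Of 3 transcription factors of olivocochlear and motor neurons it held 282 reads of Gata3, the most of any MOC cell, 2 of Gata2 and 0 of Isl1. It also held 48 reads of tdTomato. Noradrenergic neurons are another known source of Npy. The 5 listed markers are those of catecholamine neurons in general (Th, Dbh, Ddc, Slc18a2 and Slc6a2). Of these MOC cell 4 held 4, with Dbh at 0 and a summed 93.2 CPM (MOC range 0 to 677). LOC cell 9 held 4 with Slc18a2 at 0 (171 CPM), LOC cell 16 held Th and Dbh only (76.8 CPM, LOC range 1.05 to 285), and MOC cell 12 held all 5 (48.8 CPM). Ddc led in MOC cell 4, LOC cell 9 and MOC cell 12 with 43, 78 and 26 reads. No other marker of the list had more than 7 reads in them. LOC cell 16 held 12 reads of Th and 27 of Dbh.

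The same lists were read in the 3 LOC cells with most Npy. The inhibitory markers came to 658, 402 and 185 CPM in LOC cells 8, 15 and 18 (LOC range 0 to 949). Gad2 had 481, 260 and 38 reads in these cells, and Prph had 56, 258 and 28. In the catecholamine markers LOC cells 15 and 8 were the highest and second highest of the LOC group, at 285 and 211 CPM. LOC cell 18 had 120 CPM. LOC cell 15 held 112 reads of Dbh, the enzyme that makes noradrenaline, with Th and Slc18a2 at 0. It also held 20 reads of Slc6a2 (21.59 CPM, the highest of the LOC group). LOC cell 8 held 3 reads of Th, 1 of Dbh and 6 of Slc18a2, with Slc6a2 at 0. LOC cell 18 held 51 reads of Slc18a2 (64.35 CPM, the highest of the LOC group). It held 6 of Th and 38 of Ddc, with Dbh and Slc6a2 at 0. The marker with the most reads in LOC cells 15 and 8 was Ddc, a decarboxylase that is not limited to noradrenergic cells, with 132 and 155. Cx3cr1, a defining microglial marker, was at 0 in all 3 cells, whose summed microglial level was 88.3 to 418 CPM. Across LOC cells the Pearson correlation of Npy was 0.43 with the catecholamine list and 0.36 with the microglial list. It was 0.27 with both the oligodendrocyte and the inhibitory list. The Spearman values in this order were 0.46, 0.38, 0.08 and 0.03. In MOC the Pearson values were 0.16, 0.31, 0.16 and 0.26, and the Spearman values -0.03, 0.41, 0.42 and 0.32. With total counts the Pearson correlation of Npy was 0.21 in LOC and -0.26 in MOC, and with the number of genes read -0.12 and 0.47. The value for the catecholamine list in LOC was thus close to that for Calca and above that for the cholinergic reads. The part of these other transcripts and of depth in the Npy reads was not tested.

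Genes of the wider pathway were taken from lists drawn up with earlier results of these data known, and their counts are read against the 6.07% and 5.67% above. Of 4 relatives of Npy and its receptors, Ppy and Npy6r had 0 reads in all cells. The other two, named after their values were seen, were Pyy with 12 reads in LOC and 8 in MOC, and Npy4r with 2 and 5. None of the 4 was measured. Of the 6 genes that process peptide precursors 2 met the size rule toward LOC and 0 toward MOC, with a median difference of 0.72 beside -0.07 for all measured genes. Pcsk1, a convertase that cuts precursors, had 98.6 CPM in LOC and 2.64 in MOC, and Pam, which amidates the end of the peptide, as the mature neuropeptide Y requires, 248 and 81.0 CPM. Another gene inside Pam on the same strand, B230216N24Rik, may share its reads.

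Both genes for proteases that cleave released neuropeptide Y, Dpp4 and Mme, were measured and neither met the rule (median difference 0.66). Among 5 genes for inhibitory G protein alpha subunits 1 met it toward LOC and 0 toward MOC, namely Gnaz with 91.0 and 36.6 CPM (median difference 0.20). MOC cell 3 gave 54.9% of the MOC reads of Gnaz. Of 4 genes for the G protein-gated potassium channels that such receptors open, 0 met the rule in either direction (median difference -0.25). Among 16 other peptide precursors 15 were measured, 4 met the rule toward LOC and 1 toward MOC (median difference 0.05). Those toward LOC were Calca, Calcb, Ucn and Pdyn, the precursor of dynorphins. LOC cell 15 gave 63.4% of the LOC reads of Pdyn and LOC cell 8 gave 51.6% of those of Calcb. The LOC medians of Pdyn and Calcb were 0.36 and 0 CPM. The gene toward MOC was Pnoc, the precursor of nociceptin, with 86.2% of its MOC reads in MOC cell 8.

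The genes whose pattern was most like that of Npy across LOC cells were not peptide genes. By Pearson r over 18 cells, among 9088 genes with a read in at least 8 LOC cells and at least 10 CPM in the group, the first was Mrpl40, a protein of the mitochondrial ribosome (0.81, read in 13 cells). Ddit3, a stress-induced transcription factor (0.72), Jmjd6, a hydroxylase (0.71), the kinase gene Dyrk1a (0.71), Csrp1, a LIM domain protein (0.69), Snx3, a sorting nexin (0.69), Urm1, a ubiquitin-like protein (0.67), and Prkra, an activator of the kinase PKR (0.67), followed. Ddit3 and Jmjd6 overlap Mars and Mettl23 on the other strand, and the unstranded reads do not separate the partners. Of the peptide genes Ucn came highest, at rank 66 with 0.56. Calca stood at rank 309 with 0.44, Pdyn at rank 451 with 0.41 and Pcsk1 at rank 639 with 0.37, while Cck, the cholecystokinin precursor, lay at -0.37. The median over the 9088 genes was 0.00 and the central 90% lay between -0.43 and 0.40. Across the 13 MOC cells, 7 of them at 0 for Npy, the highest among 8298 genes were Coa7 (0.97), Bambi (0.91), Tbc1d20 (0.86), Slain1 (0.86) and Bet1 (0.85).

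**Figure D4:**
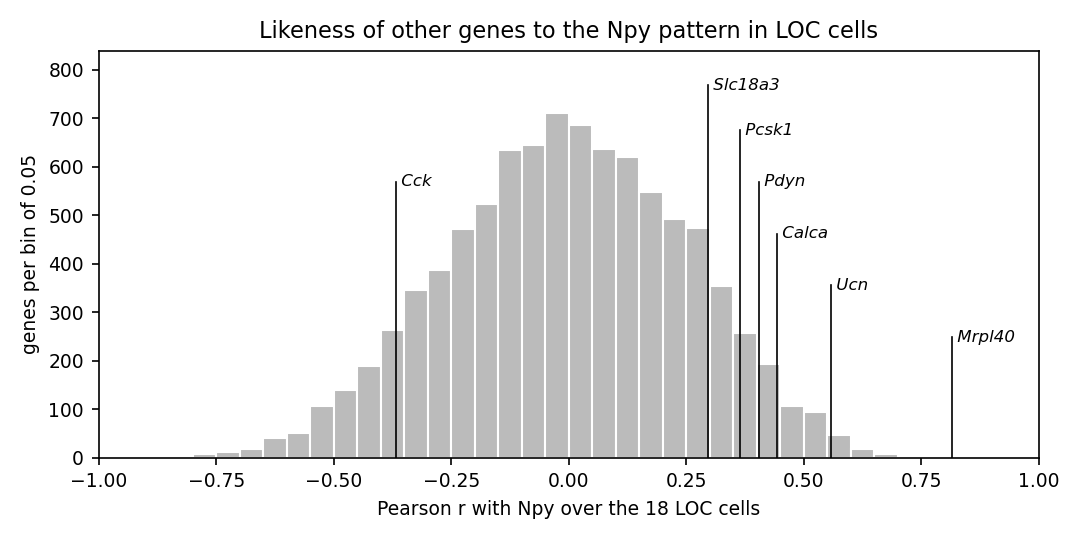
Number of genes (vertical axis) by Pearson r with Npy over the 18 LOC cells (horizontal axis, bins of 0.05) for 9088 genes, with lines for named genes. Mrpl40 stands at the right end with 0.81, Ucn at 0.56 and Calca at 0.44 lie in the upper tail, and Cck lies at -0.37.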

How the data were processed

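The samples were 31 libraries of 1 patched neuron each, 18 LOC and 13 MOC, grouped by the titles. The authors deposited raw read counts per gene, 55440 rows of which 19 are added sequences (0.0173% of counts, left out of library sizes), and a table of normalised signal values for 20784 genes, which is CPM on TMM-adjusted sizes per the file's name and a constant times the raw count in each column. The submitters' processing notes name STAR 2.5.2 among other tools, and GRCm38 and mm10 as builds. What counted the reads and which filter made the normalised table are points not given in the sources used here. The library kit keeps no strand, and reads carry no molecular identifiers.

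CPM, log2(CPM + 1), exact 95% intervals (scipy 1.17.1) and correlations were computed from the raw counts in Python 3.11.15, and TMM sizes with edgeR 4.0.16. Symbols came from GENCODE M21, which matched 55154 identifiers, and gene lengths are its merged exons. The size rule and the ranking by r were run on simulated data with planted differences far wider than the 2-fold limit and 1 planted close partner. Weaker differences and looser likeness were not tried there. The members, the lists and the rules were chosen with earlier results of these data known. Named genes were the 4 members, the cholinergic genes, Calca, list genes that met the size rule or had 0 reads, and the 8 (LOC) or 5 (MOC) genes with the highest r with Npy. Outside this rule, Cck, Dpp4, Mme, Pyy, Npy4r, the overlapping genes, the markers and factors of cell types and the single cells named in the text were chosen after their values were seen. No receptor was read in the 8 cells of a group that this ranking asks for. Alternatives were other pseudocounts, sizes, depths and sets of libraries.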

Additional observations from a re-analysis of the deposited data

How the results depend on the processing

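The difference of Npy stayed above 0 in all 11 alternatives and in all 31 recomputations without 1 library (1.97 without LOC cell 8 to 2.87 without MOC cell 4). It no longer met the size rule with the deposited normalised values (2.21, ratio of means 1.87), which change both the scaling and the summing: the ratio was 2.80 for CPM averaged over cells, and TMM sizes on summed counts kept the call (153 and 36.8 CPM). The libraries with a tdTomato read (difference 3.15), those with over 10 cholinergic reads (3.75), and the cell and gene counts in libraries with 10 cholinergic reads, were chosen after seeing the data. The log2 ratio of summed CPM was 3.55 for Npy1r, past the 2-fold limit, and -2.29 for Npy2r, where the LOC level of 2 reads was raised to that of 3 counts over the group (0.21 CPM). Without 1 library the differences ran from -0.02 to 0.50 for Npy1r, -0.24 to 0.14 for Npy2r and 0.00 for Npy5r. At 5 reads 0% of MOC cells held Npy1r and 0% of LOC cells Npy2r, and after thinning to 300000 counts 7.69% of MOC cells held Npy1r. With log2(CPM + 10) 370 genes met the rule toward LOC and 209 toward MOC, against 1078 and 1007, and with 10 cholinergic reads 1730 toward LOC. Without 1 library the correlations of Npy ran from 0.23 to 0.50 (cholinergic reads, LOC), -0.43 to -0.16 (cholinergic reads, MOC), 0.36 to 0.55 (Calca, LOC) and -0.33 to -0.013 (Calca, MOC, without MOC cell 4), and no alternative changed their sign. The causes were not tested. No paired analysis was possible because the result comes from no test and the cell numbers name cells without linking them across groups. A library without a read of a receptor still allows 1.14 to 8.42 CPM of it.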
